A study of Mus musculus with 35 samples.

Results

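The 35 genes described here mark successive stages of the oligodendrocyte lineage or encode proteins and enzymes of myelin, and they were taken from the count tables by exact match of the gene name to a list. They are 35 of 49568 gene names, of which 18063 had enough counts to be tested, and all 35 were among those tested. The list holds 2 genes of precursor cells (Pdgfra and Cspg4), 3 transcription factors present throughout the lineage (Sox10, Olig1 and Olig2), 4 genes of newly formed oligodendrocytes (Gpr17, Bcas1, Enpp6 and Nkx2-2) and 26 genes of mature oligodendrocytes. The 26 mature genes are Mbp, Mog, Mag, Mobp, Cnp, Cldn11, Opalin, Ermn, Mal, Ugt8a, Gjb1, Aspa, Nkx6-2, Myrf, Enpp2, Trf, Fa2h, Gal3st1, Tspan2, Pllp, Qdpr, Hapln2, Ninj2, Adamts4, Gpr37 and Car2.

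Oligodendrocytes wrap axons of the central nervous system in myelin, a stack of lipid-rich membrane that speeds the conduction of action potentials. They arise throughout life from precursor cells that divide in response to platelet-derived growth factor, pass through a short premyelinating stage and then switch on the genes of myelin under transcription factors such as SOX10 and MYRF. In the hypothalamus the lineage is found in fibre tracts and among the neurons, and in the median eminence its cells turn over in the adult.

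The libraries were made from polyA RNA of the hypothalamus of male mice of strain B6/J at Zeitgeber time 16, and the 5 groups differed in genotype and feeding. Control mice, called wild type in the design text, had free access to food (ad libitum, n = 10) or were without it for the 16 h from lights-on (n = 10). PER2-S662D mice, which carry a form of the clock protein PER2 with a mutated phosphorylation site, were fed (n = 5) or fasted in the same way (n = 5), and mice with the genotype label Per2 knockout were all fasted (n = 5). How either allele was made, whether mutants and controls were littermates, and how old the mice were is not given in the sources used here, and p-values measure the spread between these libraries. Library numbers in the file headers form separate ranges for control replicates 1 to 5, the labelled knockout, control replicates 6 to 10 and the S662D mice, so the mutant genotypes and the ranges of library numbers cannot be told apart. The numbers of S662D replicates 2, 3 and 4, fed and fasted, end in an additional digit whose meaning is not stated.

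Promoter windows are shown for 4 mature genes that were called in both fasting comparisons, 2 that were lower (Ugt8a and Nkx6-2) and 2 that were higher (Hapln2 and Mobp) after the fast. Each runs 5′ to 3′ from 250 bases before to 50 bases after the gene's start, from RefSeq on GRCm38.p6, the same assembly as mm10. The windows are chr3:125938603-125938902 (minus strand) for Ugt8a, chr7:139582748-139583047 (minus strand) for Nkx6-2, chr3:88027462-88027761 (minus strand) for Hapln2 and chr9:120149492-120149791 (plus strand) for Mobp. Capitals mark matches, on either strand, to 5 short motifs: the SOX motifs ACAAAG and ACAATG, the E-box CAGCTG bound by OLIG factors, the E-box CACGTG bound by CLOCK and BMAL1, and the glucocorticoid receptor motif AGAACA.
Ugt8a: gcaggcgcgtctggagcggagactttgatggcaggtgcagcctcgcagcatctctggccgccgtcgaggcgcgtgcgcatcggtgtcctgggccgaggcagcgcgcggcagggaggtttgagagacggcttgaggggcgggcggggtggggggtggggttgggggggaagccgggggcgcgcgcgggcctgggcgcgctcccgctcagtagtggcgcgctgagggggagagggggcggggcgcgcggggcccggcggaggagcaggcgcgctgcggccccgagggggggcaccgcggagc
Nkx6-2: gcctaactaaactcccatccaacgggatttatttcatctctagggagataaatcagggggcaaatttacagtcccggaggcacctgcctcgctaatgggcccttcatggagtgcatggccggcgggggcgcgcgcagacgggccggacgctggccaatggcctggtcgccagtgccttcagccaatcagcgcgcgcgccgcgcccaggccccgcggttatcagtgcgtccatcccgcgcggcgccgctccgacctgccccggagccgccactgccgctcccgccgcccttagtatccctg
Hapln2: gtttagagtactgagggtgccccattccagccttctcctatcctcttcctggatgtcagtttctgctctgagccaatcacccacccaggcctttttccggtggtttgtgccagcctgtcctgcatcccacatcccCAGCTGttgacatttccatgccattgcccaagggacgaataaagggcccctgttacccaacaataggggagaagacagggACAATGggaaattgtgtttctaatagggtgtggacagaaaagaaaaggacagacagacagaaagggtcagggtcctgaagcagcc
Mobp: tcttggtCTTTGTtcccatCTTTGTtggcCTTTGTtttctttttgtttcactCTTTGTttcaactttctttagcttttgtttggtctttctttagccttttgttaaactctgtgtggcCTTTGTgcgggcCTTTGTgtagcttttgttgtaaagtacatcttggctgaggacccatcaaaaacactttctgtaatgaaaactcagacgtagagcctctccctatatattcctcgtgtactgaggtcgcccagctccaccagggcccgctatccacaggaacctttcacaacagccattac
The Ugt8a and Nkx6-2 windows held 0 matches, and the Hapln2 window held 1 match to CAGCTG and 1 to ACAATG. The Mobp window held 6 copies of CTTTGT, the reverse complement of ACAAAG. Of 32851 RefSeq windows, 1 held as many matches, and it is the Mobp window itself. The 24 listed genes with a window had 32 windows. Of these 32, 8 held ACAAAG, 7 ACAATG, 4 CAGCTG, 2 CACGTG and 4 AGAACA. The shares of all windows were 18.7%, 12.6%, 16.3%, 7.15% and 19%. These matches are descriptions of letters in the windows.

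Depth was 17959586 to 37027342 assigned counts per library, and levels are given as CPM (edgeR's cpm, on library sizes scaled with TMM). The hypothalamic peptide genes Hcrt (55.1 to 132 CPM), Pmch (59.0 to 144 CPM), Oxt (91.7 to 151 CPM) and Agrp (1.69 to 6.30 CPM) were above 0 in every library, and the thalamic gene Prkcd was at 335 to 534 CPM. Per2 was at 28.2 to 33.4 CPM in the libraries labelled Per2 knockout and at 26.1 to 33.1 CPM in fasted controls, so its level did not set the labelled knockout apart. Its level was 16.4 to 22.7 CPM in the S662D libraries, below every control library. The 5 marker genes of choroid plexus summed to 665 to 1533 CPM in 5 libraries (fed control 2, fasted controls 8 and 9, fed S662D 2 and 5) and to at most 291 CPM in the other 30. In bulk tissue, fewer cells of a type and less RNA per cell cannot be told apart.

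Together the 35 genes took 0.761% to 1.02% of a library, with a median of 0.921%, and Mbp alone made up 41.1% to 47.9% of their sum. Per kilobase of exon, Mbp, which encodes myelin basic protein, had the highest mean level in fed controls (484.5 CPM per kb). Mobp, another basic protein of compact myelin, followed at 193 CPM per kb, then the myelin enzyme gene Cnp at 142, the raft proteolipid gene Mal at 113, the tight-junction gene Cldn11 at 108 and the pteridine reductase gene Qdpr at 108 CPM per kb. The lowest levels were those of Cspg4 (1.43 CPM per kb) and of Enpp6, a choline phosphodiesterase of newly formed cells (1.44 CPM per kb). Counting took no account of strand, and at least 10% of the exon bases of Bcas1, Nkx6-2, Pllp, Qdpr and Trf overlap another gene, so the values of these 5 are uncertain.

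By stage, the group means spread most, relative to their size, in the precursor and whole-lineage genes. The summed precursor genes were at 70.4 ± 3.36 CPM in fed controls and 78.0 ± 7.49 CPM in fasted controls (SD, n = 10 each), at 86.6 ± 6.11 CPM in fed and 88.2 ± 12.3 CPM in fasted S662D mice, and at 81.0 ± 4.31 CPM in the labelled knockout (SD, n = 5 each). All 5 fed S662D libraries lay above all 10 fed controls in this sum, whereas the fasted groups overlapped. The 3 whole-lineage factors summed to 326 ± 16.0 CPM in fed and 295 ± 24.0 CPM in fasted controls, to 368 ± 23.5 and 364 ± 42.5 CPM in fed and fasted S662D mice, and to 283 ± 12.4 CPM in the labelled knockout. The new-oligodendrocyte genes ranged from 283 ± 11.5 CPM in the labelled knockout to 329 ± 17.2 CPM in fasted S662D mice. The mature genes ranged from 7975 ± 582 CPM in fed S662D mice to 8864 ± 271 CPM in fasted S662D mice, with 8367 ± 753 CPM in fed controls, and these group ranges overlapped. A sum is dominated by its most abundant genes, so the single genes are described next.

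**Figure D1:**
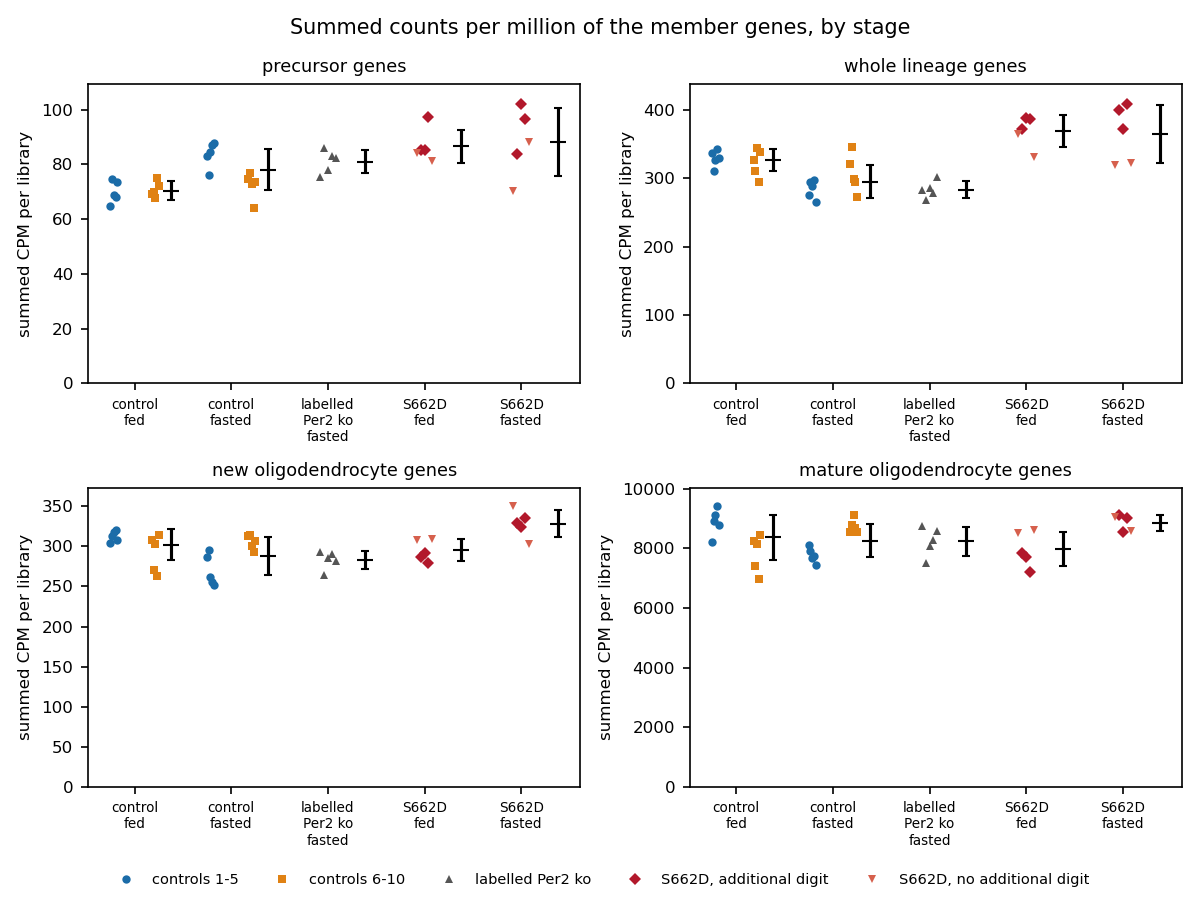
Summed CPM (vertical axes, 1 panel per stage) of the precursor, whole-lineage, new and mature genes in the 5 groups, with 1 point per library and bars for the mean and SD. Fed S662D libraries stand above the fed controls in the precursor panel, while the mature panel shows overlapping groups.

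Fasting in control mice called more listed genes than any other of the 9 comparisons. The 10 fasted controls had lower levels than the 10 fed controls of 12 listed genes and higher levels of 3, so 15 of 35 were called, beside 3.88% of all genes tested. Over all genes, 1.68% were called lower and 2.20% higher. The median log2 fold change over the 35 was -0.13, with 27 of 35 negative, and the median over all genes tested was 0.00. The largest fall was that of Ugt8a, the enzyme that makes galactosylceramide (log2 fold change -0.52), and the largest rise that of Hapln2, a link protein of the matrix at nodes of Ranvier (0.39). The most abundant gene, Mbp, was not called (-0.04, adjusted p = 0.845).

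Of the 6 transcription factors, 4 fell in fasted controls. SOX10 is required for terminal differentiation and drives many myelin genes. Sox10 (chr15:79154913-79164490, minus strand) had a lowest, median and highest level of 62.5, 73.2 and 78.4 CPM in fed controls and of 43.0, 49.7 and 64.0 CPM in fasted controls. All fasted libraries but the highest were below every fed one. The fold change of Sox10 was -0.47 ± 0.06 on the log2 scale (SE, adjusted p = 1.16e-06). Nkx6-2, a homeobox factor of late differentiation, was at 39.1, 47.0 and 52.6 CPM in fed and 27.8, 34.7 and 45.7 CPM in fasted controls, a log2 fold change of -0.41 ± 0.07 (adjusted p = 0.000109). Nkx2-2, which marks the onset of differentiation, was at 9.76, 11.0 and 12.7 CPM against 5.94, 8.02 and 9.80 CPM (-0.50 ± 0.08, adjusted p = 9.05e-06). For both genes the top of the fasted group reached the bottom of the fed group. Olig2, a basic helix-loop-helix factor that specifies the lineage, fell less, from 44.2, 47.8 and 50.02 CPM to 36.7, 39.3 and 45.5 CPM (-0.22 ± 0.06, adjusted p = 0.0154). Its relative Olig1 (-0.03) and Myrf, the membrane-bound factor that starts myelination (0.06), did not pass the test.

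Enzymes of myelin lipids were lower after the fast in 3 of 6 cases. Ugt8a (chr3:125865271-125938619, minus strand) was at 66.0, 76.1 and 85.5 CPM in fed controls (lowest, median and highest) and at 39.9, 52.6 and 68.0 CPM in fasted controls. The groups met only at their edges, and the log2 fold change was -0.52 ± 0.07 (SE, adjusted p = 1.25e-06). Fa2h, which hydroxylates the fatty acids that galactosylceramide carries, was at 52.9, 56.8 and 66.4 CPM against 40.5, 46.3 and 58.8 CPM (-0.31 ± 0.06, adjusted p = 0.000202). Aspa, which frees acetate from N-acetylaspartate, was at 21.9, 25.7 and 30.9 CPM against 17.3, 21.7 and 26.1 CPM and passed narrowly (-0.28 ± 0.08, adjusted p = 0.0495). Gal3st1, the sulfotransferase of sulfatide, Enpp2 and Enpp6 were not called, with Enpp6 at 7.24 to 11.1 CPM fed and 5.44 to 10.1 CPM fasted (-0.26, adjusted p = 0.122).

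Membrane and myelin proteins were split. Ermn, a cytoskeletal protein of the myelin sheath, was at 99.1, 110.4 and 117 CPM in fed controls (lowest, median and highest) and at 78.2, 89.5 and 105 CPM in fasted controls (-0.27 ± 0.05, SE, adjusted p = 7.67e-05). Gpr37, a receptor that restrains differentiation, was at 107, 112 and 130 CPM against 73.3, 90.6 and 112 CPM (-0.29 ± 0.06, adjusted p = 0.00183). Gjb1, the gap junction protein connexin 32, was at 22.1, 27.3 and 31.7 CPM against 16.9, 21.2 and 30.2 CPM (-0.31 ± 0.08, adjusted p = 0.0239). All 3 fell with overlapping groups. Mobp (chr9:120149707-120181484, plus strand) rose, from 1116, 1306 and 1489 CPM to 1331, 1474 and 1592 CPM (0.15 ± 0.04, adjusted p = 0.0285). The other major myelin genes were not called in the pooled controls: Mag (-0.09), the adhesion protein next to the axon, Cnp (-0.08) and Mog (-0.02), on the outer face of the sheath.

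Among the genes of metabolism and matrix, Car2, a carbonic anhydrase, was the only listed gene whose fed and fasted controls did not overlap. The share of all genes tested without overlap is not given, and off the list Cryab, Aqp4 and Aldh1l1 did not overlap either. Car2 was at 226, 238 and 269 CPM in fed controls (lowest, median and highest) and at 127, 160 and 222 CPM in fasted controls (chr3:14886273-14900770, plus strand). The log2 fold change was -0.51 ± 0.09 (SE, adjusted p = 0.000456). Adamts4, a protease that cleaves matrix proteoglycans, fell from 32.8, 38.5 and 40.3 CPM to 24.3, 28.9 and 36.4 CPM (-0.34 ± 0.06, adjusted p = 0.000143). Hapln2 (chr3:88021750-88027583, minus strand) went the other way, from 47.8, 65.0 and 78.0 CPM to 73.9, 85.1 and 98.7 CPM (0.39 ± 0.07, adjusted p = 0.000652), with only the upper end of the fed group reaching the fasted one. The third gene that rose was Pdgfra, the receptor through which platelet-derived growth factor acts on precursors, at 50.3, 52.9 and 58.3 CPM fed and 48.5, 60.2 and 72.6 CPM fasted (0.19 ± 0.06, adjusted p = 0.0316). Its fasted range enclosed the fed one. Cspg4, the NG2 proteoglycan of the same cells, was at 14.2 to 19.8 CPM fed and 14.7 to 21.1 CPM fasted and was not called.

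**Figure D2:**
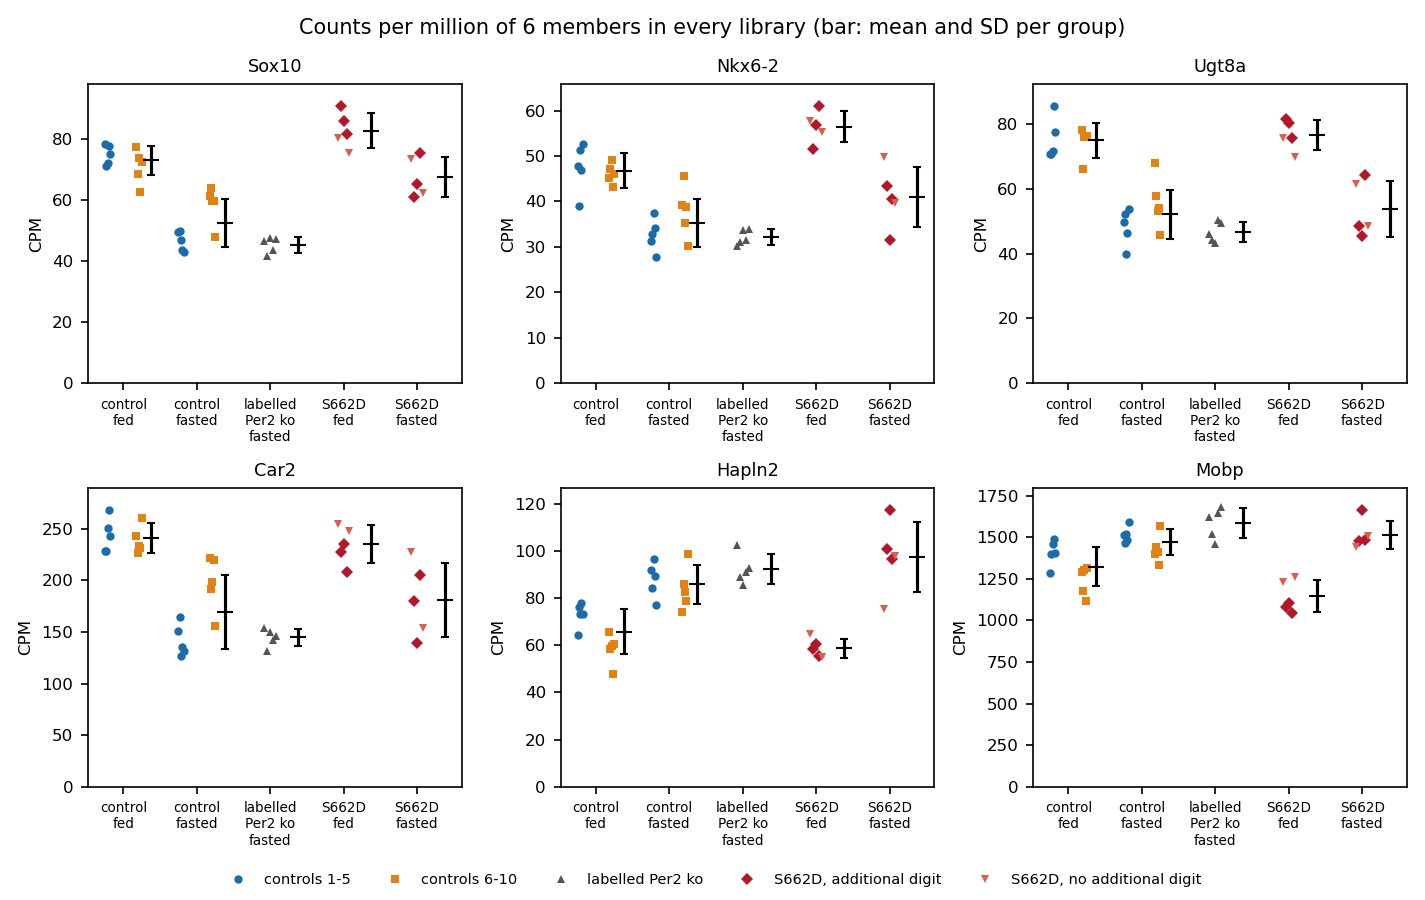
CPM (vertical axes) of Sox10, Nkx6-2, Ugt8a, Car2, Hapln2 and Mobp in every library of the 5 groups (horizontal axes), 1 point per library, with bars for the group mean and SD and a separate colour for control replicates 1 to 5, controls 6 to 10 and S662D libraries with and without the additional digit. Sox10, Nkx6-2, Ugt8a and Car2 sit lower and Hapln2 and Mobp higher in the fasted groups, and fasted controls 1 to 5 are below most of controls 6 to 10 for Sox10 and Car2.

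Fasting in S662D mice, compared within 5 fed and 5 fasted libraries that share no sample with the control comparison, called 7 listed genes, 3 lower and 4 higher, beside 2.64% of all genes tested. Of all genes, 0.830% were called lower and 1.80% higher. Sox10, Nkx6-2 and Ugt8a fell and Mobp and Hapln2 rose in both genotypes, and these 5 are 33.3% of the 15 called in controls and 71.4% of the 7 called in S662D mice. All 15 genes called in controls had the same sign in S662D mice, and over the whole list 27 of 35 did. The same shares over all called genes are not given here. Whether the list agreed more than other genes was therefore not tested.

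Hapln2 stood at 64.7, 58.2, 60.5, 55.4 and 54.9 CPM in fed S662D replicates 1 to 5 and at 75.5, 101, 117, 96.6 and 97.8 CPM in fasted replicates 1 to 5. Every fasted library was above every fed one, and the log2 fold change was 0.73 ± 0.10 (SE, adjusted p = 1.64e-05). Mobp was at 1229, 1082, 1105, 1045 and 1261 CPM fed and at 1440.0, 1475, 1661, 1484 and 1508 CPM fasted, again without overlap (0.40 ± 0.06, adjusted p = 2.05e-05). Mal, a proteolipid that sorts myelin proteins into rafts, was at 297, 285, 284, 282 and 289 CPM fed and at 327, 350.5, 430, 353 and 349 CPM fasted (0.33 ± 0.06, adjusted p = 0.000339). Cldn11, the tight-junction protein of the sheath, was at 199, 189, 190.0, 187 and 194 CPM against 203, 239, 231, 236 and 223 CPM (0.24 ± 0.07, adjusted p = 0.031). The fed and fasted values of these genes did not overlap either, although replicate 1 of the fasted group lay close to the fed values for Cldn11. In controls, Mal (0.14, adjusted p = 0.0624) and Cldn11 were not called.

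The 3 genes that fell were 2 factors and the galactosylceramide enzyme. Ugt8a was at 75.5, 81.4, 80.1, 75.8 and 69.9 CPM in fed S662D replicates 1 to 5 and at 61.5, 48.4, 45.4, 64.3 and 48.6 CPM in fasted ones (-0.52 ± 0.09, SE, adjusted p = 0.000531). Nkx6-2 was at 57.7, 51.5, 56.9, 61.0 and 55.3 CPM fed and at 49.9, 43.5, 31.4, 40.6 and 39.6 CPM fasted (-0.46 ± 0.10, adjusted p = 0.00239). Neither gene overlapped between the feeding states. Sox10 was at 80.1, 90.6, 85.9, 81.6 and 75.2 CPM fed and at 73.4, 61.1, 65.2, 75.2 and 62.2 CPM fasted, with fasted replicate 4 level with fed replicate 5 (-0.30 ± 0.08, adjusted p = 0.0457). The difference between the fasting responses of the genotypes was tested directly and called 0 of 35 genes and 0% of all genes (lowest adjusted p in the list 0.762, edgeR). At an unadjusted p below 0.05, 8 of 35 passed, and DESeq2 called 0. The share of all genes at that unadjusted cut is not given, here or for later counts, so these counts have no background. The S662D replicates without the additional digit gave 0 calls for fasting, beside 0.0373% of all genes and with 6 listed genes at an unadjusted p below 0.05, and the 3 with it gave 7, beside 3.71% of all genes. Hapln2, for example, had a log2 fold change of 0.54 without and 0.85 with the digit.

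**Figure D3:**
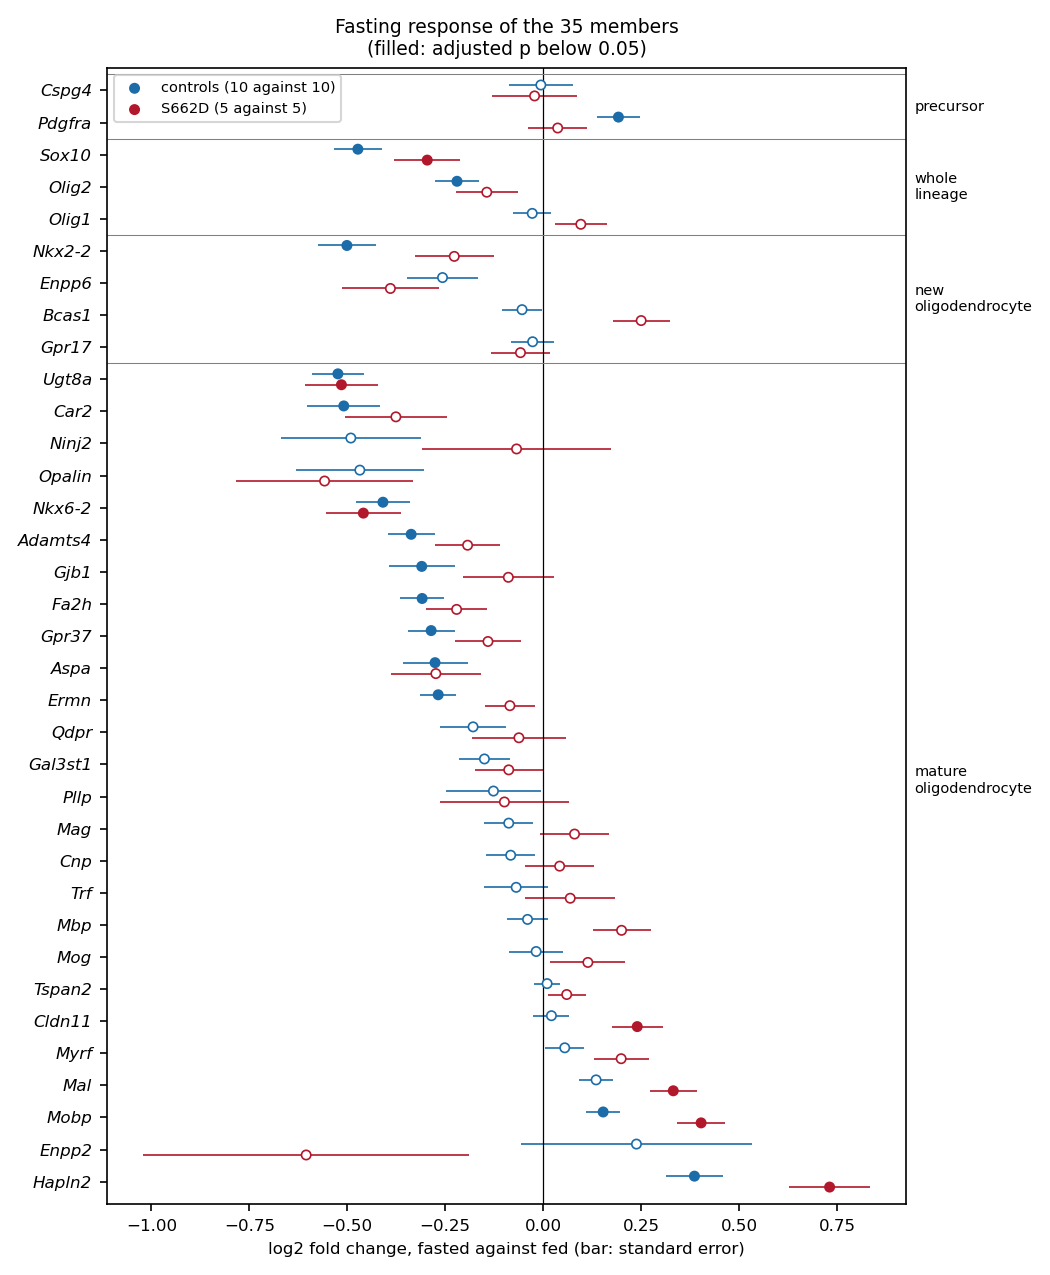
Log2 fold change after the fast, with its SE, for each of the 35 genes (vertical axis) in control and in S662D mice. Filled symbols had an adjusted p below 0.05, and Sox10, Nkx6-2 and Ugt8a are filled to the left and Mobp and Hapln2 to the right of 0 in both genotypes.

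The fasting response of the control mice differed between the 2 sets of control replicates that the library numbers form. Within controls 1 to 5, 20 of 35 genes were called, 18 lower and 2 higher, beside 7.40% of all genes, and the median log2 fold change was -0.33. Within controls 6 to 10, 4 were called, beside 1.71% of all genes, and the median was -0.02 with 17 genes positive and 18 negative. The 4 were Sox10, Ugt8a and Ermn, which fell, and Hapln2, which rose, and all 4 were called in the same direction in controls 1 to 5. The log2 fold change of Sox10 was -0.69 ± 0.06 (SE, adjusted p = 3.57e-09) in controls 1 to 5 and -0.28 ± 0.07 (adjusted p = 0.0343) in controls 6 to 10. That of Hapln2 was 0.26 ± 0.08 (adjusted p = 0.0418) and 0.52 ± 0.09 (adjusted p = 0.00321).

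A test of the difference between the sets in their fasting response called 12 listed genes, each higher after the fast in controls 6 to 10 relative to controls 1 to 5, beside 10.6% of all genes called and 5.99% called in that direction. The 12 were the factors Sox10 and Nkx2-2, the membrane genes Mbp, Mog, Mag, Cnp, Opalin, Bcas1, Gjb1 and Gpr37, and the enzyme genes Qdpr and Car2. Mag was at 254 to 290 CPM in fed controls 1 to 5 and at 230, 231, 208, 220 and 176 CPM in fasted ones. In controls 6 to 10 it was at 205 to 242 CPM fed and at 259, 270, 261, 247 and 246 CPM fasted. Mag therefore fell without overlap in the first set (-0.35, adjusted p = 0.00131), while in the second every fasted value was above the fed ones without passing the test (0.17, adjusted p = 0.148), and the difference was 0.51 ± 0.09 (SE, adjusted p = 0.00198).

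Cnp, the gene of a nucleotide phosphodiesterase that keeps cytoplasmic channels in myelin open, went the same way. It was at 515 to 580 CPM in fed controls 1 to 5 and at 479, 458, 413, 431 and 393 CPM in fasted ones, against 420 to 540 CPM and 557, 560, 545, 519 and 516 CPM in controls 6 to 10 (difference 0.50 ± 0.09, SE, adjusted p = 0.00198). Mbp was at 4049 to 4665 CPM fed and 3922, 3812, 3722, 3751 and 3309 CPM fasted in controls 1 to 5, and at 3267 to 4166 CPM fed and 4171, 4422, 4225, 4061 and 4206 CPM fasted in controls 6 to 10 (difference 0.38 ± 0.08, adjusted p = 0.00517). Fasted values lay below the fed ones in the first set for both genes and mostly above them in the second. Opalin, a membrane protein of the innermost sheath, had the largest difference of the 12 called genes (0.88 ± 0.29, adjusted p = 0.0482), with 17.4 to 25.8 CPM fed and 8.89 to 12.1 CPM fasted in controls 1 to 5, and 15.2 to 19.8 CPM fed and 12.1 to 19.2 CPM fasted in controls 6 to 10. Gjb1 was at 26.4 to 31.7 CPM fed and 16.9 to 21.5 CPM fasted in the first set, and at 22.1 to 29.5 CPM and 20.8 to 30.2 CPM in the second (0.61 ± 0.13, adjusted p = 0.00391). In the first set the feeding states of both genes were apart, and in the second they overlapped.

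Of the remaining genes of the 12, Mog, Bcas1 and Qdpr fell in controls 1 to 5 alone. Mog was at 94.2 to 109.5 CPM fed and 82.5 to 86.5 CPM fasted in controls 1 to 5, and at 71.1 to 90.8 CPM fed and 95.7 to 100.1 CPM fasted in controls 6 to 10 (difference 0.49 ± 0.11, SE, adjusted p = 0.00552). Bcas1, a protein that marks early myelinating cells, was at 234 to 254 CPM fed and 188 to 226 CPM fasted in the first set and at 191 to 239.7 CPM and 232 to 255 CPM in the second (0.38 ± 0.08, adjusted p = 0.00517). Qdpr was at 189 to 221 and 128 to 174.5 CPM in the first set, and at 148 to 199.6 and 171 to 201 CPM in the second (0.57 ± 0.14, adjusted p = 0.00911). For these 3 genes too the first set was lower after the fast without overlap. Sox10 (0.41), Nkx2-2 (0.41), Gpr37 (0.35) and Car2 (0.51) complete the 12, and of these 4, each with a negative fold change in both sets, only Sox10 was called in both. The same test called markers of other cells: Tmem119 (0.45) and C1qa (0.55), 2 of 6 for microglia, Ly6c1 (0.39), 1 of 5 for endothelium, and Ramp3 (0.28) and Tnnt1 (0.75) for thalamus were higher, while Slitrk6 (-0.38), the third of 5 thalamic markers called, and Slc1a3 (-0.26), 1 of 7 for astrocytes, were lower. The part of these cells in the difference was not tested. The summed mature genes followed the same order, with 8219 to 9428 CPM fed and 7443 to 8108 CPM fasted in controls 1 to 5, and 6972 to 8447 CPM fed and 8539 to 9120 CPM fasted in controls 6 to 10.

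Between fasted controls alone, 12 genes were called, 11 higher in controls 6 to 10 and 1 lower, beside 6.02% of all genes called and 3.09% called higher. Car2 was at 151, 165, 127, 136 and 132 CPM in replicates 1 to 5 and at 222, 191, 199, 220 and 156 CPM in replicates 6 to 10 (0.48 ± 0.10, SE, adjusted p = 0.0093). Replicate 10 lay within the first set and the other four above it. The other 10 that were higher were Sox10, Nkx2-2, Mbp, Mag, Cnp, Bcas1, Gjb1, Gpr37, Qdpr and the membrane proteolipid gene Pllp, with log2 differences from 0.19 (Mbp) to 0.49 (Pllp, 7.76 to 10.3 CPM in replicates 1 to 5 and 8.93 to 15.1 CPM in 6 to 10). The gene that was lower was Pdgfra, at 66.7, 60.0, 66.7, 65.9 and 72.6 CPM in replicates 1 to 5 and at 55.5, 60.3, 55.8, 48.5 and 58.8 CPM in replicates 6 to 10 (-0.25 ± 0.07, adjusted p = 0.0218). Between fed controls, 0 listed genes and 0% of all genes were called by edgeR (lowest adjusted p in the list 0.114), 11 listed genes had an unadjusted p below 0.05, and DESeq2 called 4, beside 0.537% of all genes. Fitted with these 2 groups alone, edgeR called 5, beside 3.05% of all genes. Markers of other cells moved with the fasted sets: 4 of 6 microglial markers were higher in controls 6 to 10, with sums of 187 to 211 CPM in replicates 1 to 5 and 216 to 248 CPM in 6 to 10, as were 2 of 5 thalamic markers, with sums of 595 to 673 and 655 to 749 CPM. The summed astrocyte markers ran the other way without overlap, at 2547 to 2744 CPM in replicates 1 to 5 and 2338 to 2518 CPM in 6 to 10, with 0 of 7 called. Their part in these differences was not tested. Without the 5 libraries rich in choroid plexus markers, an alternative chosen after seeing the data, the fasted comparison called 0 listed genes and 0 genes in all (lowest adjusted p in the list 0.0699, 18 listed genes with an unadjusted p below 0.05, median 0.20), and the difference in fasting response called 9, beside 5.16% of all genes. Without fasted control 5 the fasted comparison called 4 listed genes (beside 0.499%), and without fasted control 7 it called 7 (beside 2.04%).

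**Figure D4:**
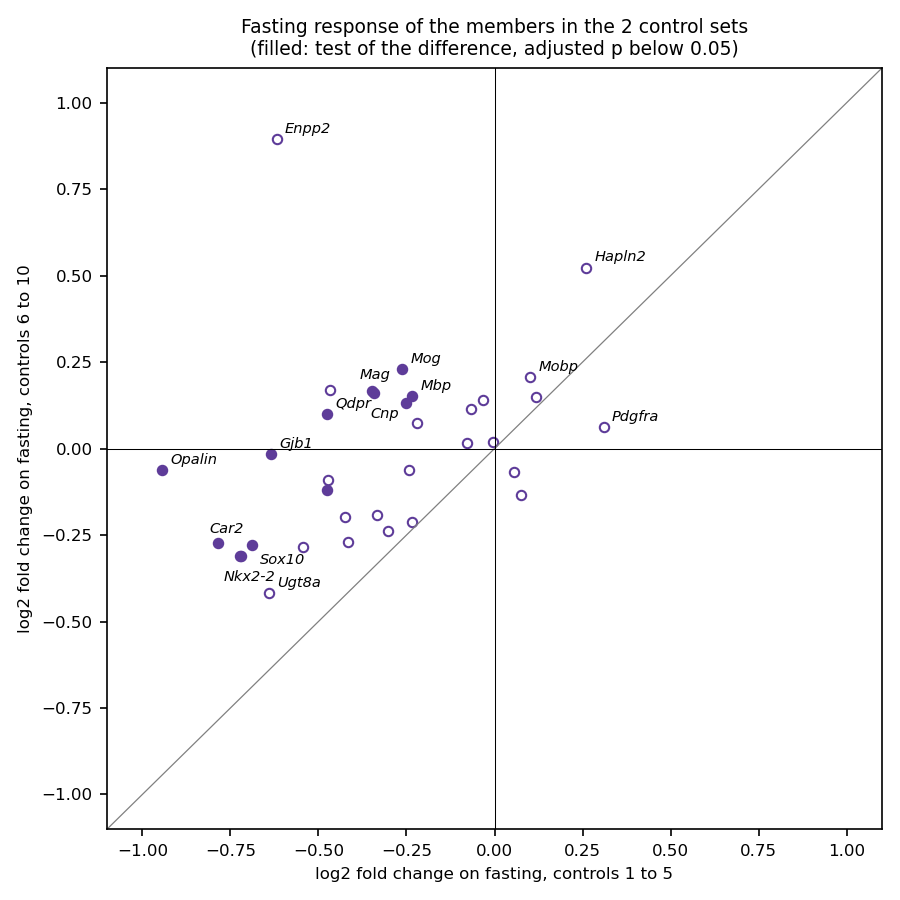
Log2 fold change after the fast in control replicates 1 to 5 (horizontal axis) and 6 to 10 (vertical axis), 1 point per listed gene. Filled points are the 12 genes whose difference between the sets had an adjusted p below 0.05, and Sox10 and Ugt8a lie below 0 on both axes while Mag, Cnp and Mbp lie below 0 on the horizontal axis alone.

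S662D mice were compared with controls in each feeding state, and these comparisons share their control libraries with the fasting comparison. In fed mice 5 of 35 genes were called, 4 higher and 1 lower, beside 4.69% of all genes called and 3.12% called higher, and the list's median log2 fold change was 0.01. The genes that were higher include both precursor genes and Gpr17, a receptor of premyelinating cells. Gpr17 had a lowest, median and highest level of 43.9, 49.3 and 52.4 CPM in fed controls and was at 55.8, 63.5, 68.8, 68.8 and 60.1 CPM in fed S662D replicates 1 to 5. The groups did not overlap, and the log2 fold change was 0.38 ± 0.07 (SE, adjusted p = 0.000493). Pdgfra was at 50.3, 52.9 and 58.3 CPM in controls and at 64.4, 61.7, 62.2, 70.6 and 62.4 CPM in S662D mice, also without overlap (0.27 ± 0.07, adjusted p = 0.0149). Cspg4 was at 14.2, 16.8 and 19.8 CPM against 19.8, 23.4, 22.9, 26.6 and 18.9 CPM, with replicates 1 and 5 at the upper end of the controls (0.40 ± 0.10, adjusted p = 0.0127). Nkx6-2 was higher by 0.27 ± 0.08 (adjusted p = 0.0482) and Mobp was lower, with -0.21 ± 0.05 (adjusted p = 0.0174). Without the 5 libraries rich in choroid plexus markers, 3 listed genes were called, beside 1.92% of all genes. Of 5 endothelial markers, Cldn5 (0.31) and Flt1 (0.28) were higher and Ly6c1 (-0.38) was lower in fed S662D mice, with sums of 159 to 186 CPM against 150.3 to 172 CPM in fed controls, and their part in the result was not tested.

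In fasted mice 8 of 35 genes were called, each higher in S662D, beside 5.57% of all genes called and 3.35% called higher, and the list's median was 0.12 with 30 of 35 positive. The 8 include 5 of the 6 transcription factors: Sox10, Olig1, Olig2, Nkx2-2 and Myrf. Sox10 was at 73.4, 61.1, 65.2, 75.2 and 62.2 CPM in fasted S662D replicates 1 to 5, against 43.0, 49.7 and 64.0 CPM (lowest, median and highest) in fasted controls (0.36 ± 0.07, SE, adjusted p = 0.00364). Olig1 was at 206, 284, 257, 279.8 and 216 CPM against 185, 201 and 237 CPM (0.30 ± 0.06, adjusted p = 0.00231), and Myrf at 93.0, 107, 128, 128 and 99.9 CPM against 84.2, 91.8 and 102 CPM (0.27 ± 0.06, adjusted p = 0.00575). For Olig1 and Myrf, replicates 2, 3 and 4 were above every control and replicates 1 and 5 were within them. Gpr17 was at 55.9, 63.4, 66.9, 66.4 and 52.5 CPM against 40.7, 49.8 and 53.6 CPM (0.35 ± 0.07, adjusted p = 0.00166), and Cspg4 at 15.8, 22.1, 25.0, 28.9 and 19.2 CPM against 14.7, 16.6 and 21.1 CPM (0.38 ± 0.10, adjusted p = 0.0145). Olig2 was at 39.8, 55.2, 49.6, 54.0 and 43.2 CPM against 36.7, 39.3 and 45.5 CPM (0.26 ± 0.07, adjusted p = 0.0207). Nkx2-2 was at 10.9, 9.36, 9.41, 8.74 and 9.90 CPM against 5.94, 8.02 and 9.80 CPM (0.29 ± 0.09, adjusted p = 0.0444). The other called gene was Adamts4, at 36.1, 33.6, 39.4, 40.7 and 32.8 CPM against 24.3, 28.9 and 36.4 CPM (0.27 ± 0.07, adjusted p = 0.0192). Fitted with these 2 groups alone, 3 of the 35 were called, beside 1.67% of all genes. All 8 genes overlapped between the groups. The endothelial markers Cldn5 (0.47), Flt1 (0.37) and Pecam1 (0.28) were also higher, 3 of 5 on that list, with sums of 142 to 194 CPM in fasted S662D mice and 129 to 155 CPM in fasted controls. Thalamic sums were 688 to 837 CPM in fasted S662D mice and 595 to 749 CPM in fasted controls. In fed mice they were 616 to 908 CPM in S662D and 584 to 739 CPM in controls. The part of these cells in the result was not tested.

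The S662D calls differed with the libraries used. Replicates 2, 3 and 4, which carry the additional digit, gave 11 called genes fed (6 higher and 5 lower, beside 16.9% of all genes) and 11 fasted (10 higher and 1 lower, beside 17.1%). Replicates 1 and 5 gave 0 in both states, beside 0.0854% and 0.112% of all genes, with 3 genes fed and 6 fasted at an unadjusted p below 0.05. The digit as a term left 0 in both, beside 0.127% and 0.111%, with 6 and 9 at an unadjusted p below 0.05. Only S662D libraries carry the digit, so with the term the contrast again rests largely on replicates 1 and 5. It is therefore not a separate check. In fasted mice Cspg4 differed from controls by 0.58 with the digit and 0.05 without it, and Olig1 by 0.44 and 0.07, whereas Sox10 differed by 0.35 and 0.37 and Nkx2-2 by 0.21 and 0.40. In fed mice Gpr17 differed by 0.46 with the digit and 0.25 without it, and Pdgfra by 0.28 and 0.25. Marker sums of other cells also differed with the digit. Thalamic sums were 724 to 908 CPM with it and 616 and 643 CPM without it in fed mice. In fasted mice they were 782 to 837 CPM against 688 and 712.5 CPM. Endothelial and astrocyte sums were likewise higher with the digit in both states, without overlap. Neuronal sums overlapped in fasted mice and striatal sums in both states. The part of these cells in the S662D calls was not tested. Against controls 1 to 5 alone, 9 genes were called fed (3 higher and 6 lower, beside 9.79% of all genes) and 15 fasted (all higher, beside 9.45%). Against controls 6 to 10 alone, 0 were called fed (beside 0.185%, lowest adjusted p 0.0632, 10 genes with an unadjusted p below 0.05) and 1 fasted (beside 0.269%). That gene was Gpr17 (0.42 ± 0.08, SE, adjusted p = 0.00712). The difference between the genotypes in their fasting response called 10 genes with controls 1 to 5, beside 2.73% of all genes, and 0 with controls 6 to 10, beside 0%. Without fed S662D replicate 4, 1 gene was called fed (beside 0.362% of all genes), and without fasted S662D replicate 4, 3 were called fasted (beside 0.845%).

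**Figure D5:**
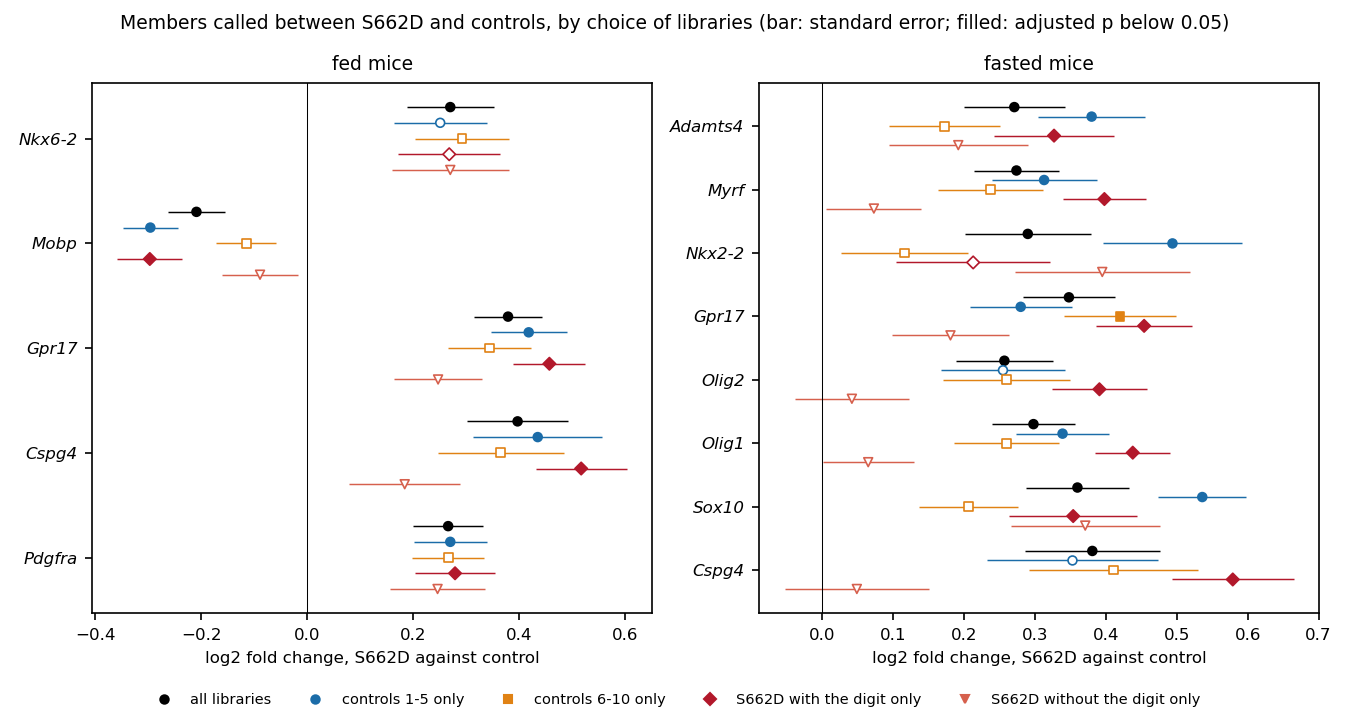
Log2 fold change of S662D against control (horizontal axes) for the genes called in fed and in fasted mice, computed from all libraries, with control replicates 1 to 5 or 6 to 10 alone, and with the S662D libraries with or without the additional digit, with bars for the SE. Filled symbols had an adjusted p below 0.05, and with the libraries without the digit or with controls 6 to 10 every symbol is open except that of Gpr17 in fasted mice with controls 6 to 10.

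The libraries labelled Per2 knockout were compared with the 10 fasted controls, since no fed group carried that label. Of the 35 genes, 0 were called by edgeR (lowest adjusted p 0.738) and by DESeq2, 4 had an unadjusted p below 0.05, and 0.0277% of all genes were called. The median log2 fold change of the list was -0.07. Sox10 was at 46.6, 41.5, 47.4, 43.6 and 47.2 CPM in the 5 libraries, all within the range of fasted controls except replicate 2, which lay below it. Hapln2 was at 103, 89.1, 85.6, 91.2 and 93.0 CPM, with replicate 1 above the fasted controls. Against controls 1 to 5 alone 0 were called, beside 0.0113% of all genes (Sox10 -0.04). Against controls 6 to 10 alone 2 were called lower, beside 0.556%, namely Sox10 (-0.37 ± 0.07, SE, adjusted p = 0.0139) and Gpr37 (-0.36 ± 0.07, adjusted p = 0.00844).

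Enpp2, which makes lysophosphatidic acid and is also a gene of the choroid plexus, followed the choroid plexus markers. It was at 521 to 799 CPM in the 5 libraries rich in those markers and at 167 to 301 CPM in the other 30, and edgeR called it in none of the 9 comparisons. DESeq2 called it higher in controls 6 to 10 between the fasted sets (1.14, adjusted p = 0.0358) and in the difference between the sets in their fasting response (1.50, adjusted p = 0.0411). Its log2 fold change for fasting in S662D mice was -0.61 with all libraries and 0.07 without those 5 (adjusted p = 0.921), and for S662D against control in fasted mice it was -0.53 and 0.09. Between fed groups it was 0.32 with all libraries and -0.11 without those 5. The other listed genes that edgeR called in none of these comparisons were Enpp6, Gal3st1, Trf, Tspan2 and Ninj2. Trf, the iron carrier transferrin, ranged from 13.3 to 26.6 CPM over all libraries and Tspan2, a tetraspanin of early myelinating cells, from 158 to 193 CPM. Gal3st1 ranged from 15.5 to 23.9 CPM, and Ninj2, an adhesion molecule, from 1.14 to 4.20 CPM.

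A further 46 genes of the lineage that are not on the list gave the background of the pathway: 9 of precursors, 16 of mature cells, 7 factors and 14 growth factors and receptors. Fasting in controls called 10 of 46, 1 higher and 9 lower, beside 3.88% of all genes. Large falls were those of Hes5 (-0.56), a target of Notch signalling, and Fgfr2 (-0.43), a fibroblast growth factor receptor of myelinating cells. Fasting in S662D mice called 6 of 46, 3 higher and 3 lower, beside 2.64% of all genes. The largest changes were those of Hes5 (-0.69), the lipocalin gene Apod (0.65) and Fgfr2 (-0.39). In the fed state only Nfasc (0.22), a protein of the node, and Id2 (0.32), an inhibitor of helix-loop-helix factors, were called of the 46. Both were higher in S662D mice. In the fasted state C1ql1 (0.31), Nfasc (0.19), Cryab (0.38), Id2 (0.46) and Lingo1 (0.23) were higher in S662D mice. Between S662D and control mice, 4.69% of all genes were called in the fed state and 5.57% in the fasted state. The fed share of the 46 was not above that of all genes. The labelled knockout gave 0 of 46, beside 0.0277% of all genes. Between the control sets, 0 of 46 were called fed and 6 fasted (3 higher and 3 lower), beside 0% and 6.02% of all genes. In their fasting response 9 of 46 differed (7 higher and 2 lower), beside 10.6% of all genes. In the fasting comparison of controls, markers of other cells were called in 2 of 6 cases for microglia (Cx3cr1 -0.41, P2ry12 -0.34), 2 of 5 for endothelium (Cldn5 -0.44, Tek -0.42), 3 of 7 for astrocytes (Aqp4 -0.33, Aldh1l1 0.20, Agt 0.25) and 0 of 8 for neurons. Endothelial sums were 150.3 to 172 CPM in fed and 129 to 155 CPM in fasted controls, and the part of these markers in the lineage results was not tested.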

How the data were processed

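PolyA RNA of a block of mouse brain holding the hypothalamus was sequenced as paired-end reads of 150 bases, per the labels' protocols. The authors deposited raw counts per gene for each of 35 libraries. Per the submitters' processing notes, reads were aligned with STAR 2.7.10b to mm10 and counted with featureCounts 2.0.1. Per the file headers, counting used GENCODE vM12, gene names, every alignment of a multi-mapping fragment and no strand option. Reads of near-identical genes are thereby added, and the counts of overlapping genes are uncertain. The members, the stages and the other gene lists were chosen with earlier results of these data known.

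All 35 libraries entered 1 fit in edgeR 4.0.16 (R 4.3.3): genes kept with filterByExpr by group (minimum count 10, 18063 genes), TMM scaling, glmQLFit with robust estimation and glmQLFTest. Control sets were compared in the same way with the sets as separate groups. The Benjamini-Hochberg adjustment ran over all 18063 genes, and a gene is called at an adjusted p below 0.05. SE was derived from the F statistic, so the precision is that of the spread between libraries. Sums have no test. The common biological coefficient of variation was 0.09. The procedure was tested on simulated counts. Any listed gene could be named. Of the other lists, called genes were named where 5 or fewer, otherwise the 3 with the largest change. Some genes that this rule selects are not reported here. Genes with at least 10% of exon bases shared with another gene count as uncertain. Alternatives were DESeq2 1.42.0, other scaling and filters, subsets of libraries, a replicate block and leaving out each library.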

Additional observations from a re-analysis of the deposited data

Results flagged for a closer look

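Within groups, 8 values lay far from the other libraries of their group, among 180 groups looked at, of which chance alone gives about 1 in 20. The precursor sum was 97.15 CPM in fed S662D replicate 4, against 81.3 to 85.1 CPM in the other four. Adamts4 was at 32.77 CPM in fed control 5 (others 36.99 to 40.3 CPM), and Gpr37 at 129.6 CPM in fed control 4 (others 107 to 117 CPM). Cldn11 was at 188.0 CPM in replicate 2 of the labelled knockout (others 216 to 227 CPM). Fa2h was at 51.46 CPM in fed S662D replicate 5 (others 61.7 to 65.7 CPM), and Mal at 429.7 CPM in fasted S662D replicate 3 (others 327 to 353 CPM). Enpp2 was at 641.2 CPM in fed control 2 (others 207 to 272 CPM) and at 294.1 CPM in replicate 5 of the labelled knockout (others 170.2 to 194 CPM). Both libraries had the highest choroid plexus marker sum of their group, the second with 285 CPM against 20.6 to 61.4 CPM in the other four of the labelled knockout.

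The fasting response differed between control replicates 6 to 10 and 1 to 5, by the test of the difference itself, for 12 genes. The differences in log2 fold change were 0.406 for Sox10, 0.379 for Bcas1, 0.406 for Nkx2-2, 0.381 for Mbp, 0.489 for Mog, 0.508 for Mag, 0.498 for Cnp, 0.876 for Opalin, 0.615 for Gjb1, 0.572 for Qdpr, 0.35 for Gpr37 and 0.507 for Car2.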

How the results depend on the processing

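Counts of called members kept within 1.5 times of the reported ones under the settings not named here, and 0 of 1489 values of called genes under the alternatives changed sign, while 12 of 59 called gene results stayed called in every alternative. Fasting in controls gave 4 with controls 6 to 10 only. Fasting in S662D mice gave 0 without the additional digit. Genotype by fasting gave 10 with controls 1 to 5 only. S662D against control, fed, gave 9 with controls 1 to 5, 0 with controls 6 to 10, 11 with the digit, 0 without it, 0 with the digit as a term and 3 without the choroid-rich libraries, a setting chosen after seeing the data. S662D against control, fasted, gave 3 with only the groups compared, 15 with controls 1 to 5, 1 with controls 6 to 10, and 0 without the digit or with it as a term. The labelled knockout gave 2 with controls 6 to 10. Control sets gave 5 (only the groups compared) and 4 (DESeq2) fed, and 0 without the choroid-rich libraries fasted. The cause was not tested, except that smaller sets of libraries hold fewer samples.

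Leaving out 1 library at a time gave 11 to 17 calls for fasting in controls, 5 to 11 for fasting in S662D (11 without fasted replicate 1), 0 to 0 for genotype by fasting and the labelled knockout, 1 to 8 for S662D fed, 3 to 10 for S662D fasted, 0 to 2 for the control sets fed, 4 to 14 for them fasted and 9 to 14 for the set by fasting. S662D fed gave 2 without replicate 2 or 3 and 8 without replicate 5, and S662D fasted gave 4 without replicate 3 and 5 without replicate 2. The sets fed gave 2 without fed control 10. Shares over all genes are given above for only some of the libraries left out. 

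With the replicate block, the counts were 13 for fasting in controls, 6 for fasting in S662D, 0 for genotype by fasting, 5 for S662D fed, 8 for S662D fasted and 0 for the labelled knockout. Shares over all genes are not given for these counts. Same-numbered libraries correlated by -0.08 to 0.029 in controls and by -0.081 to 0.157 in S662D mice, so little shared deviation by number was seen. Such correlations cannot settle whether equal numbers stand for related samples. A total of 0 of 10 control pairs and 1 of 5 S662D pairs were best matches.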

Other observations

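Some libraries were the highest or lowest of their group for many mature genes at once. Fed control 4 had the highest level in its group for 20 of the 26 mature genes and fed control 9 the lowest for 14. In fasted controls, replicate 7 was highest for 8 and replicate 3 lowest for 10. Among S662D mice, fed replicate 1 was highest for 11 and replicate 4 lowest for 16, and fasted replicate 1 was highest for 12 and replicate 3 lowest for 15. In the labelled knockout, replicate 1 was highest for 12 and replicate 2 lowest for 15.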
